A study of Mus musculus with 15 samples.

Results

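The genes described here handle iron in the mouse colon: the hepcidin genes Hamp and Hamp2, the hepcidin regulator Hfe, the iron exporter Slc40a1 with the ferroxidase Heph, the uptake genes Tfrc, Slc11a2 and Cybrd1, the ferritin heavy chain Fth1 and the iron sensor Ireb2. They are 10 of 18193 genes measured, and 24 of 45101 probe sets were annotated to exactly 1 of these symbols. The genes were selected by name, with earlier results of these data known. The main probe set of each was chosen by its mean over the 15 arrays, the brightest being taken and the others given beside it. That mean used no group. Expression was measured on Affymetrix Mouse430_2 arrays, as log2 values, in colon of male littermates aged 3 months on a C57BL/6 and 129 hybrid background. There were 5 groups of 3 arrays. Wild type colon (APC+/+/Olfm4+/+) carried neither mutation, APC mutant colon (APC+/-/OLFM4(+/+)) carried a heterozygous mutation of Apc, the brake of the Wnt pathway, and Olfm4 mutant colon (APC+/+/Olfm4-/-) carried a homozygous mutation of the gene for the crypt glycoprotein Olfm4. Mice with both changes (APC+/-/Olfm4-/-) gave tissue next to a tumour, called adjacent tissue below, and tumour tissue.

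Hepcidin is a small peptide hormone, known chiefly from the liver, that binds ferroportin, the product of Slc40a1, and causes its breakdown, so that less iron leaves cells. Hepcidin transcription is driven by bone morphogenetic protein (BMP) signals through SMAD proteins and by interleukin-6 through STAT3, and Hfe takes part in relaying the iron signal. Iron enters the gut epithelium after reduction by Cybrd1 and transport by Slc11a2, or as transferrin-bound iron through the transferrin receptor Tfrc. Inside the cell it is stored in ferritin, whose heavy chain is Fth1, and it leaves through Slc40a1 after oxidation by Heph. Ireb2 encodes an iron regulatory protein that binds hairpins in messenger RNAs such as those of Tfrc and Fth1 and so sets their stability or translation.

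In tumours the export pair was lower than in adjacent tissue: Heph by 2.84-fold and Slc40a1 by 2.09-fold. Hfe and the main Hamp2 probe set were lower too, by 1.68-fold and 3.62-fold. Against wild type colon, Ireb2 and Cybrd1 were higher in both tissues of the double mutant mice and in Olfm4 mutant colon. Hamp varied so much between arrays of a group, above all in wild type colon, that none of its differences passed the test with all arrays.

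Some features of the samples bear on every value below. The double mutant arrays come from 2 animals by their titles: replicate 1 of adjacent and of tumour tissue from one, and replicates 2 and 3 of each from the other, although the labels state 3 mice per category. The title of Olfm4 mutant replicate 3 joins digits of the other animals' numbers, and whether it is a separate mouse or a pool of those is not stated. If it were a pool, the Olfm4 mutant group would hold fewer than 3 independent samples. P-values thus measure only how far these arrays spread, which may be technical in part. The Olfm4 probe set lay between 2.97 and 3.32 on all 15 arrays and so does not check the Olfm4 genotype, and where the Apc probe sets lie relative to its mutation was not established. The array numbers in the labels run through the groups in blocks, so that array order and group cannot be told apart. Bacterial RNAs added before labelling changed along with that order: their 3′ minus 5′ difference on the log2 scale averaged 2.05 ± 0.08 (SD, n = 3) for wild type, 2.23 ± 0.2 for APC mutant, 2.70 ± 0.53 for Olfm4 mutant, 4.12 ± 0.28 for adjacent and 4.98 ± 0.25 for tumour arrays. The 8 colonocyte markers gave a log2 summed level of 15.87 to 15.95 in adjacent and 13.35 to 13.84 in tumour tissue, and wild type lay at 16.19 to 16.46. None of the 8 lay in the lowest quartile of genes on every array, but Cyp2c55 stood at 5.43 in tumour replicate 2, under that array's first quartile of 5.77. In bulk tissue fewer cells of a type and less RNA per cell cannot be told apart.

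The 2 hepcidin genes are related copies that lie close together on chromosome 7, and their upstream sequences are shown as a description. Each line gives 150 bases directly before the gene start from RefSeq (build GRCm38.p6, minus strand), 5′ to 3′, Hamp at chr7:30944030-30944179 and Hamp2 at chr7:30924182-30924331. Capitals mark the core of the BMP response element, GGCGCC, or the letters aligned with it, and then the STAT site, TTCTTGGAA.
Hamp: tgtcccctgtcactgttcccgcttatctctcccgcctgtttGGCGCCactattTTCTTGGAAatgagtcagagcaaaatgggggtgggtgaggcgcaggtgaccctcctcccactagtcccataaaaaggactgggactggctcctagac
Hamp2: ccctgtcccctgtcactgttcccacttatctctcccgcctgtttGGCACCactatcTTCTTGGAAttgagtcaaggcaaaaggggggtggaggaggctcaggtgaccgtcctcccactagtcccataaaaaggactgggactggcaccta
The 2 stretches aligned over 153 columns, of which 135 (88.2%) were identical, 12 were substitutions and 6 were gaps. TTCTTGGAA, searched on both strands, stood in each, starting 97 bases before the gene start in Hamp and 94 in Hamp2. GGCGCC started 109 bases before the start of Hamp and was not in the Hamp2 window, where the aligned letters differ by G4A, counted from 1 at the 5′ end of the hexamer with the Hamp base first. Of 32851 RefSeq promoter windows of that length, 7.01% hold GGCGCC and 0.183% hold TTCTTGGAA. A match describes letters, not a bound site, and a part of these letters in the expression values was not tested.

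Hamp, the main hepcidin gene, was read by 2 probe sets that ran together over the 15 arrays (r = 0.992), and the brighter one is described. Its log2 level was 7.21, 6.71 and 10.90 in replicates 1, 2 and 3 of wild type colon and 10.87, 8.44 and 8.72 in APC mutant colon. It was 10.99, 9.11 and 10.69 in Olfm4 mutant colon, 11.47, 9.22 and 9.72 in adjacent tissue and 10.63, 9.87 and 10.19 in tumours. The lowest arrays were wild type replicates 1 and 2, while wild type replicate 3 lay among the highest, so every pair of groups overlapped. The whole range, 6.71 to 11.47, is 27-fold, and the spread within groups (residual SD 1.4) was at the 99.8th percentile of all genes. Group means ran from 8.28 ± 2.3 (SD, n = 3) for wild type up to 9.35 ± 1.3 for APC mutant, 10.14 ± 1.2 in adjacent and 10.23 ± 0.38 in tumour to 10.26 ± 1 in Olfm4 mutant colon, and no neighbours in that order differed beyond their spread. The largest difference, Olfm4 mutant against wild type, was 1.99 (SE 1, limma adjusted p = 0.25), and tumour against adjacent was 0.09 (SE 1, adjusted p = 0.96). One array decided this: without wild type replicate 3 Hamp was higher than wild type by 3.27 in tumours (adjusted p = 0.0051), by 3.17 next to them (adjusted p = 0.014) and by 3.30 with Olfm4 alone mutated (adjusted p = 0.036). Markers of other organs stood apart on some of the high Hamp arrays. In wild type colon the hepatocyte marker Cyp2e1 read 4.33, 3.85 and 9.70. The other hepatocyte markers did not share this: Alb read 6.57, 6.85 and 6.88, Apoa1 6.49, 7.85 and 7.56 and Ttr 13.62, 12.80 and 13.28. Ahsg, Fgb and Apoh were highest in replicate 2, and Serpina1c, dim on all arrays, read 3.23, 3.28 and 4.12. Cyp2e1 did not follow Hamp in the other groups. It read 8.70, 8.47 and 5.52 in APC mutant and 8.43, 8.28 and 8.39 in Olfm4 mutant colon. In adjacent tissue it read 6.44, 6.54 and 3.82, and in tumours 4.37, 4.22 and 4.71. In APC mutant colon the pancreatic marker Ctrb1 read 7.27, 4.17 and 4.27 and Cpa1 read 7.15, 4.72 and 5.04. These markers were picked after their values were seen, and their part in the Hamp values was not tested.

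Hamp2, the second mouse hepcidin gene, whose own part in iron balance is less clear, did not follow Hamp (r = -0.08 over 15 arrays that fall into 5 groups, as a description). Its main probe set read 10.16, 9.16 and 9.47 in wild type, 9.25, 9.76 and 9.45 in APC mutant and 8.62, 7.09 and 7.39 in Olfm4 mutant colon. It read 11.10, 10.01 and 10.57 in adjacent tissue and 8.84, 8.56 and 8.72 in tumours. Olfm4 mutant and tumour arrays were thus low, each below every wild type array, and the arrays of tumour and adjacent tissue did not overlap. Relative to adjacent tissue the tumours were 1.85 lower on the log2 scale (SE 0.38, limma adjusted p = 0.0024). Olfm4 mutant colon was lower than wild type by 1.90 (SE 0.38, adjusted p = 0.015), and adjacent tissue was higher than Olfm4 mutant colon by 2.86 (SE 0.38, adjusted p = 0.027), a 7.26-fold difference. In order of mean the groups stood at 7.70 ± 0.81 in Olfm4 mutant, 8.71 ± 0.14 in tumour, 9.49 ± 0.25 in APC mutant, 9.60 ± 0.51 in wild type and 10.56 ± 0.55 in adjacent tissue, and APC mutant and wild type did not differ beyond their spread.

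These Hamp2 values rest on a probe set whose suffix marks possible matches to several transcripts, and with a related copy of the gene beside it they are uncertain. The second Hamp2 probe set, without that suffix, lay between 4.78 and 5.65 on all 15 arrays and ran with the main one at r = 0.335. On every array it was under the first quartile of genes (5.57 to 5.85). At that level a difference could go unseen, so its values cannot decide on those of the main one. With probe sets free of a suffix the Hamp2 difference was -0.24 in tumour against adjacent (adjusted p = 0.36), -0.02 in Olfm4 mutant against wild type (adjusted p = 0.96) and 0.21 in adjacent against Olfm4 mutant colon (adjusted p = 0.6). The Olfm4 mutant difference was also not called without Olfm4 mutant replicate 2 (-1.59, adjusted p = 0.07) or 3 (-1.74, adjusted p = 0.06). That between adjacent and Olfm4 mutant colon was not called without any of APC mutant replicate 3, Olfm4 mutant replicate 3, adjacent replicate 3 or tumour replicate 2 (adjusted p from 0.051 to 0.24). The interaction term asked how far the adjacent difference from APC mutant colon exceeded that of Olfm4 mutant from wild type colon. It was 2.97 for Hamp2 (SE 0.53, limma adjusted p = 0.23). The double mutant arm of this term was tissue next to a tumour, so genotype and nearness to a tumour cannot be told apart. Array order and the bacterial 3′ minus 5′ difference also set that arm apart.

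**Figure D1:**
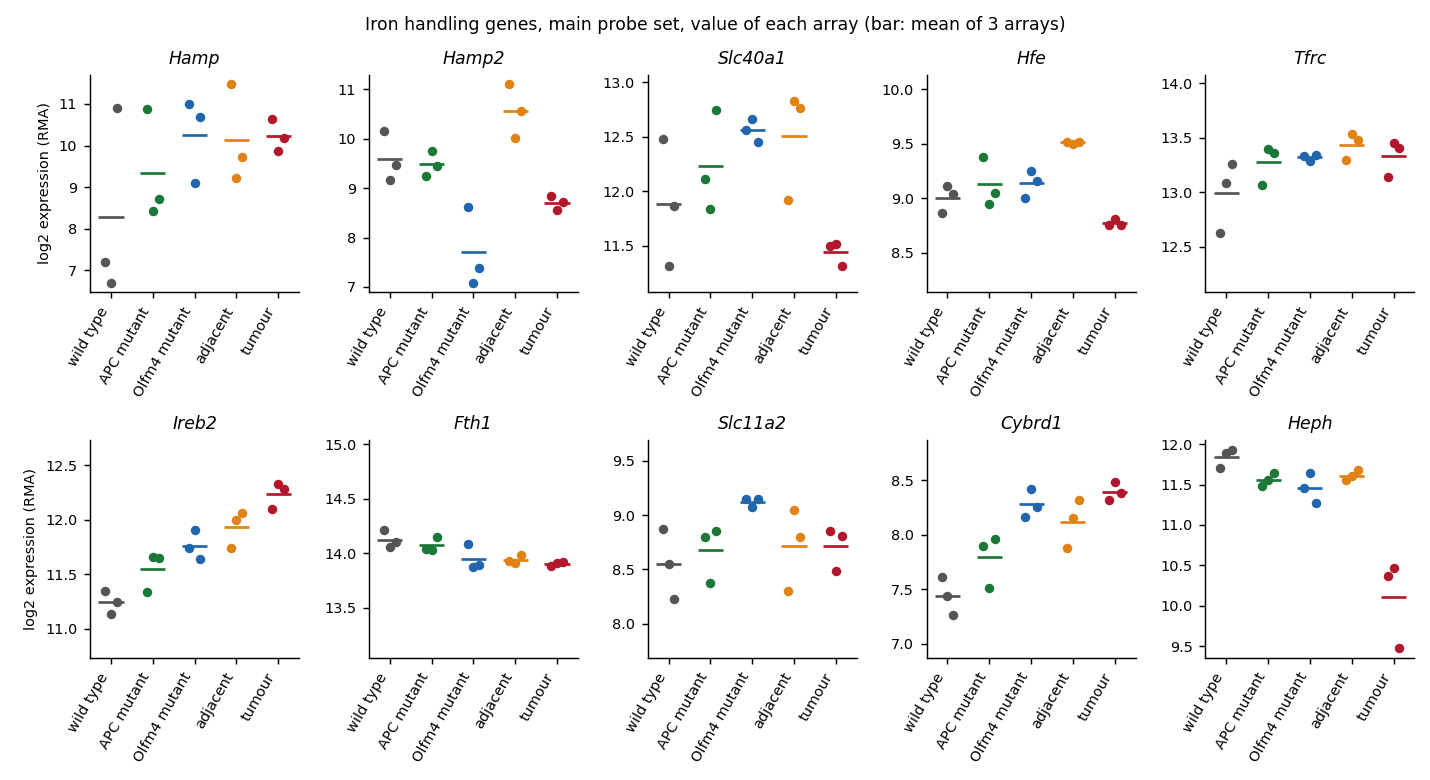
Log2 expression of the main probe set of each of the 10 genes, with a point per array, a bar at the mean of 3 arrays and the 5 groups on the horizontal axis. Hamp spans 6.71 to 11.47 with overlapping groups, whereas the Heph tumour arrays, at 9.48 to 10.47, lie below every other array.

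Hfe encodes a protein resembling major histocompatibility class I molecules that binds the transferrin receptor and promotes hepcidin expression. Its main probe set read 8.86, 9.11 and 9.04 in wild type, 9.38, 8.95 and 9.05 in APC mutant and 9.0, 9.25 and 9.16 in Olfm4 mutant colon. It read 9.52, 9.5 and 9.52 in adjacent tissue and 8.75, 8.81 and 8.75 in tumours. The adjacent arrays were the highest of all 15 and the tumour arrays the lowest. Tumours were lower than adjacent tissue by 0.75 (SE 0.12, limma adjusted p = 0.00047), and adjacent tissue was higher than wild type by 0.51 (SE 0.12, adjusted p = 0.0076). Adjacent tissue was also 0.39 higher than APC mutant colon (SE 0.12, adjusted p = 0.041), but that call was lost in 9 of the 15 fits that left out an array (adjusted p from 0.051 to 0.14).

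Probe sets other than the main ones were judged over all 45101, of which 18.7% were called in tumour against adjacent, 41.2% in tumour, 23.9% in adjacent, 0% in APC mutant and 7.11% in Olfm4 mutant against wild type, and 18.1% in adjacent against APC mutant colon. The second Hfe probe set shared the drop from adjacent tissue to tumour but gave another order of groups. It read 7.28, 7.50 and 7.27 in wild type, 8.64, 8.48 and 8.27 in APC mutant and 8.36, 8.67 and 8.48 in Olfm4 mutant colon, then 9.01, 8.70 and 8.21 in adjacent and 8.24, 7.95 and 7.70 in tumour tissue. Here the wild type arrays lay below all others. Tumours were 0.67 lower than adjacent tissue (adjusted p = 0.028 over all probe sets) and 0.61 higher than wild type (adjusted p = 0.022), while the main probe set put the tumours 0.24 below wild type (adjusted p = 0.12). The drop was not called without adjacent replicate 1 or 2 or tumour replicate 2 or 3 (adjusted p up to 0.12), nor the rise without wild type replicate 1 or 3 or tumour replicate 1 or 2 (adjusted p up to 0.094). Adjacent tissue was 1.29 higher than wild type (adjusted p = 0.00063) and Olfm4 mutant colon 1.15 higher (adjusted p = 0.0076). APC mutant colon stood 1.11 above wild type with no overlap of arrays, which did not pass the test (adjusted p = 0.33).

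Slc40a1 encodes ferroportin, the iron exporter that hepcidin acts on. Its log2 level was 12.48, 11.31 and 11.86 in wild type, 12.11, 11.84 and 12.74 in APC mutant and 12.56, 12.66 and 12.45 in Olfm4 mutant colon. It was 11.92, 12.83 and 12.76 in adjacent tissue and 11.50, 11.51 and 11.31 in tumours. The tumour arrays lay close together and below every adjacent array, but overlapped the wild type arrays. Tumours were lower than adjacent tissue by 1.06 (SE 0.31, limma adjusted p = 0.019). The second Slc40a1 probe set, which followed the first at r = 0.92, gave -1.52 (adjusted p = 0.032 over all probe sets), which adjacent replicate 2 or 3 or tumour replicate 2 or 3 decided in turn (adjusted p up to 0.14 without one of them). The call was lost without adjacent replicate 2 (-0.90, adjusted p = 0.083), adjacent replicate 3 (-0.94, adjusted p = 0.071) or tumour replicate 3 (-1.0, adjusted p = 0.064), and with the arrays of an animal averaged (-0.90, adjusted p = 0.15). Hamp and Slc40a1 did not run together or apart over the arrays (r = -0.02).

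Heph encodes hephaestin, the copper-containing ferroxidase that oxidises iron as ferroportin releases it from enterocytes. It read 11.70, 11.89 and 11.93 in wild type, 11.48, 11.55 and 11.64 in APC mutant and 11.46, 11.64 and 11.27 in Olfm4 mutant colon. It read 11.55, 11.60 and 11.68 in adjacent tissue and 10.37, 10.47 and 9.48 in tumours. The tumour arrays were the lowest, and the other 4 groups lay within 11.27 to 11.93. There the wild type arrays lay above all others, but by differences that did not pass the test (-0.23, -0.28 and -0.39 in adjacent, APC mutant and Olfm4 mutant colon, with adjusted p of 0.44, 0.8 and 0.28). The difference was -1.50 against adjacent tissue (SE 0.21, limma adjusted p = 0.00015) and -1.73 against wild type (SE 0.21, adjusted p = 2e-05), a 3.33-fold lower level. All 8 colonocyte markers were lower in tumour than in adjacent tissue, with a median difference of -3.54, and the 8 epithelial markers had a median of -0.43 with 5 lower. All 8 smooth muscle markers were lower as well, from a log2 summed level of 15.39 to 15.76 in adjacent tissue to one of 12.54 to 13.93 in tumours. Their part in the Heph, Slc40a1, Hfe and Hamp2 differences was not tested.

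**Figure D2:**
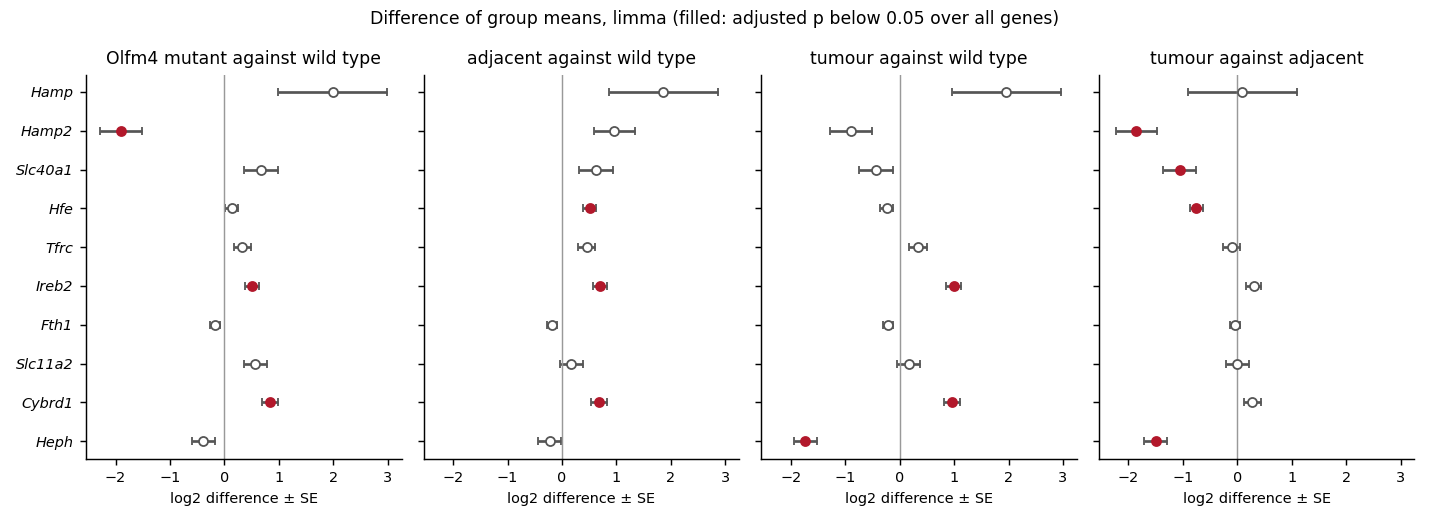
Log2 difference of group means with its standard error for the 10 genes in 4 comparisons (Olfm4 mutant, adjacent and tumour against wild type, and tumour against adjacent), filled where the limma adjusted p over all genes was under 0.05. In tumour against adjacent tissue the filled points are Hamp2, Slc40a1, Hfe and Heph, all below 0, and the bars of Hamp (SE 1) are the widest in each panel.

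Tfrc, the receptor that takes up transferrin-bound iron, was nearly level in its main probe set. That probe set read 12.63, 13.08 and 13.26 in wild type, 13.07, 13.40 and 13.36 in APC mutant and 13.33, 13.29 and 13.34 in Olfm4 mutant colon, then 13.30, 13.53 and 13.48 in adjacent and 13.14, 13.45 and 13.41 in tumour tissue. Wild type replicate 1 was the lowest of all arrays. Adjacent tissue stood 0.45 above wild type with no overlap (SE 0.16, limma adjusted p = 0.051) and tumours 0.34 above (SE 0.16, adjusted p = 0.087). Neither passed the test, but without wild type replicate 3 each did (0.58, adjusted p = 0.022, and 0.48, adjusted p = 0.029). Each also passed with cyclic loess (0.43, adjusted p = 0.042, and 0.39, adjusted p = 0.037), and the adjacent one in some further settings. With the most variable probe set both were called lower (-0.93, adjusted p = 0.036, and -1.44, adjusted p = 0.0017). With the mean of probe sets the tumours were called lower too (-0.44, adjusted p = 0.016).

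Tfrc also serves as a control for RNA integrity on this array, with probe sets for its 5′ end, its middle and its 3′ end, and the first 2 of these gave the opposite direction to the main one against wild type. Its 5′ control was lower than wild type by 0.86 in tumours (adjusted p = 0.00061 over all probe sets), by 0.79 next to them (adjusted p = 0.0029) and by 0.66 when Olfm4 alone was mutated (adjusted p = 0.026, and up to 0.11 without wild type replicate 2 or Olfm4 mutant replicate 2 or 3). The middle control was lower by 0.83 in tumours (adjusted p = 0.0033) and by 0.64 in adjacent tissue (adjusted p = 0.026, and up to 0.1 without wild type replicate 2 or 3 or adjacent replicate 1). A further Tfrc probe set, 1422967_a_at, was lower by 1.44 in tumours (adjusted p = 0.0024) and by 0.93 in adjacent tissue (adjusted p = 0.046, a call lost in 12 of the 15 fits that left out an array). The 3′ control stood at -0.21 in tumours (adjusted p = 0.21) and 0.21 in adjacent tissue (adjusted p = 0.24) against wild type, and at -0.42 in tumour against adjacent tissue (adjusted p = 0.03). The probe set 1422966_a_at stood at -0.46 in that comparison (adjusted p = 0.046). Leaving out single arrays took these last calls away in 5 and 11 of 15 fits, with adjusted p of at most 0.11 and 0.17. The difference between the 3′ and 5′ controls averaged 4.30 ± 0.31 (SD, n = 3) for wild type, 4.80 ± 0.26 for APC mutant, 5.18 ± 0.11 for Olfm4 mutant, 5.30 ± 0.053 for adjacent and 4.95 ± 0.073 for tumour arrays. The 5′ control, the middle control and 1422967_a_at were dim, averaging 4.28, 5.74 and 5.44 over the 15 arrays. The main probe set averaged 13.27, and the 5′ control lay under the first quartile of genes on every array. The direction of Tfrc between the double mutant tissues and wild type thus depended on which probe set was read. All single probe sets called lower against wild type were dim ones.

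**Figure D3:**
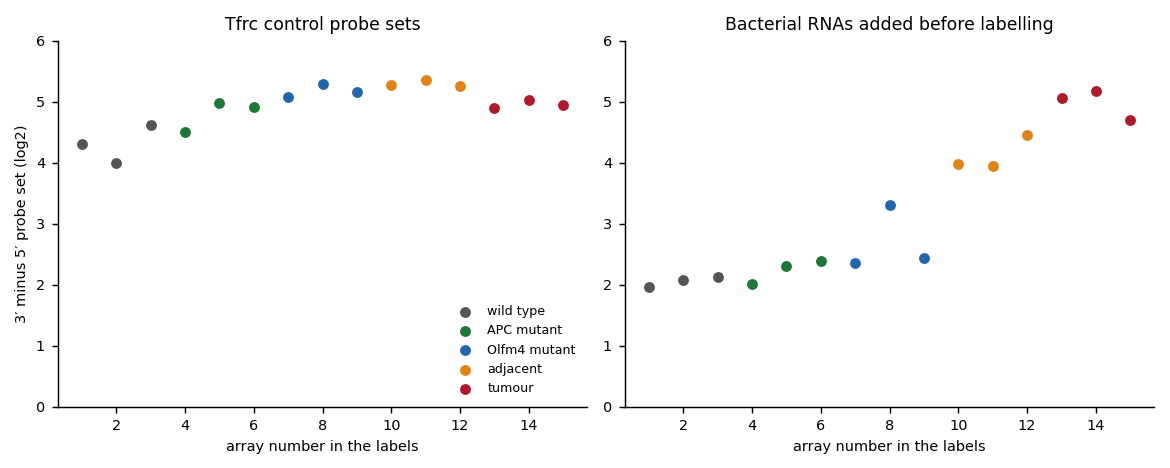
Difference between 3′ and 5′ probe sets on the log2 scale, for the Tfrc control probe sets (left) and as the mean over 4 added bacterial RNAs (right), against the array number in the labels, with a point per array coloured by group. The bacterial RNAs rise from a mean of 2.05 in wild type to 4.98 in tumour arrays, and Tfrc from 4.30 to 5.30 in adjacent tissue.

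Slc11a2 encodes DMT1, the ferrous iron transporter of the gut and of endosomes. Its brightest probe set read 8.87, 8.55 and 8.23 in wild type, 8.80, 8.38 and 8.85 in APC mutant and 9.15, 9.07 and 9.15 in Olfm4 mutant colon, then 8.30, 9.05 and 8.80 in adjacent and 8.85, 8.49 and 8.81 in tumour tissue. Olfm4 mutant arrays were the highest, and the difference from wild type, 0.57 (SE 0.21, limma adjusted p = 0.11), did not pass the test, though it did without wild type replicate 1 (0.74, adjusted p = 0.045). Tumour against adjacent stood at 0.00 (SE 0.21, adjusted p = 0.99).

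Another Slc11a2 probe set, 1426441_at, showed a different pattern. It read 7.22, 7.61 and 7.75 in wild type, 7.72, 7.86 and 7.90 in APC mutant and 7.53, 8.0 and 8.01 in Olfm4 mutant colon, then 8.34, 10.27 and 9.20 in adjacent and 9.56, 9.73 and 9.59 in tumour tissue. Every adjacent and tumour array lay above every array of the other 3 groups. Against wild type the tumours were 4.29-fold higher (log2 2.10, SE 0.35, adjusted p = 0.00033 over all probe sets) and adjacent tissue was higher by 1.74 (adjusted p = 0.0032), and adjacent tissue exceeded APC mutant colon by 1.44 (adjusted p = 0.014). The probe set 1441709_at ran with it at r = 0.956 and was 5.44-fold higher in tumours than in wild type (log2 2.44, adjusted p = 0.00051) and higher by 2.14 in adjacent tissue (adjusted p = 0.0033). Its wild type arrays, at 5.53, 5.73 and 5.46, lay near their first quartile of genes (5.60 to 5.62). Its adjacent arrays read 6.43, 8.85 and 7.86, the first of them within the Olfm4 mutant arrays (6.38, 6.80 and 6.35). The remaining one, 1452078_a_at, was called in no comparison. Slc11a2 messages are known to differ in their last exons, with and without an iron responsive element, but which form each probe set reads is not given in the sources used here.

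**Figure D4:**
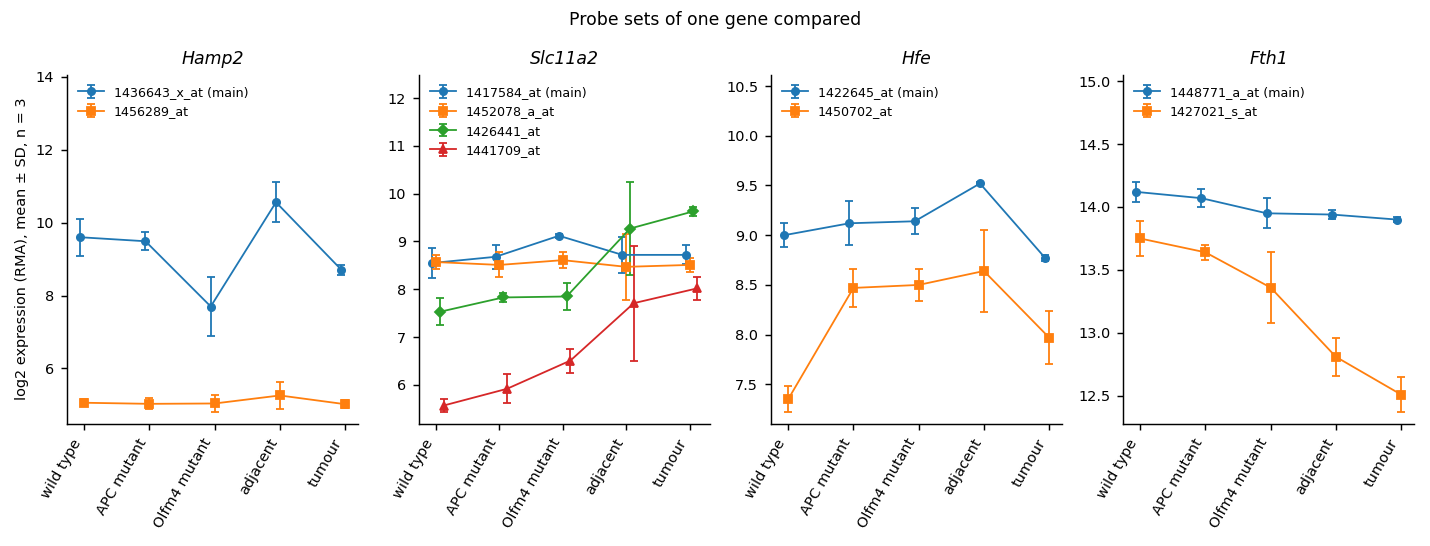
Mean and SD (n = 3) of the log2 level in each group for every probe set of Hamp2, Slc11a2, Hfe and Fth1, with the main one marked. The Slc11a2 probe sets 1426441_at and 1441709_at rise in adjacent and tumour arrays while the main one does not, and the second Hamp2 probe set stays between 4.78 and 5.65.

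Cybrd1 encodes duodenal cytochrome b, a membrane reductase that turns ferric into ferrous iron. It read 7.61, 7.44 and 7.26 in wild type, 7.90, 7.51 and 7.96 in APC mutant and 8.16, 8.42 and 8.25 in Olfm4 mutant colon. It read 7.88, 8.15 and 8.32 in adjacent tissue and 8.32, 8.48 and 8.38 in tumours. The Olfm4 mutant, adjacent and tumour arrays all lay above the wild type arrays. The differences from wild type were 0.84 for Olfm4 mutant colon (SE 0.15, limma adjusted p = 0.01), 0.68 for adjacent (SE 0.15, adjusted p = 0.0058) and 0.96 for tumour tissue (SE 0.15, adjusted p = 0.00019). The other Cybrd1 probe set was called in none of these, and with the mean of both probe sets the difference was 0.39 in Olfm4 mutant (adjusted p = 0.26) and 0.48 in adjacent tissue (adjusted p = 0.088).

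Ireb2, the iron regulatory protein that is itself broken down when iron is plentiful, followed a similar order. It read 11.35, 11.14 and 11.25 in wild type, 11.34, 11.66 and 11.65 in APC mutant and 11.74, 11.91 and 11.64 in Olfm4 mutant colon. It read 11.74, 12.00 and 12.06 in adjacent tissue and 12.10, 12.33 and 12.28 in tumours. Tumour arrays were the highest of all, and every Olfm4 mutant and adjacent array lay above every wild type array. Against wild type Ireb2 was higher by 0.99 in tumours (SE 0.13, limma adjusted p = 4.2e-05), by 0.69 next to them (SE 0.13, adjusted p = 0.0024) and by 0.51 in colon with only Olfm4 mutated (SE 0.13, adjusted p = 0.033). The last call was lost in 5 of the 15 fits without an array (adjusted p from 0.061 to 0.13). Ireb2 and Cybrd1 ran together over the 15 arrays (r = 0.85) and Ireb2 ran opposite to Heph (r = -0.71). These correlations are across arrays that fall into groups, and are given as a description.

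Fth1, the ferritin heavy chain that stores iron and oxidises it on entry, varied little in its main probe set, with a residual SD of 0.072, at the 1.74th percentile of all genes. That probe set read 14.21, 14.06 and 14.10 in wild type, 14.04, 14.03 and 14.15 in APC mutant and 14.08, 13.87 and 13.89 in Olfm4 mutant colon, then 13.93, 13.91 and 13.98 in adjacent and 13.88, 13.91 and 13.92 in tumour tissue. Tumours lay 0.22 below wild type without overlap (SE 0.091, limma adjusted p = 0.066), which did not pass the test. The second Fth1 probe set, whose suffix marks matches to several transcripts, read 13.91, 13.67 and 13.67 in wild type against 12.67, 12.96 and 12.81 in adjacent and 12.42, 12.44 and 12.67 in tumour arrays. Against wild type it was 1.24 lower in tumours (adjusted p = 1.9e-05 over all probe sets) and 0.94 lower in adjacent tissue (adjusted p = 0.00063). With the bacterial 3′ minus 5′ difference in the model these became -0.06 (SE 0.44) and -0.11 (SE 0.32), against an SE of 0.14 without it. That difference nearly coincides with the groups, so this fit cannot separate it from group.

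Counted by comparison, 4 of the 10 genes were lower in tumour than in adjacent tissue and 0 higher, at a limma adjusted p under 0.05 over all genes, where 28.1% of all genes were called and 13.8% were called lower. Against wild type, tumours had 2 higher and 1 lower (49.4% of all genes called), adjacent tissue 3 higher (27.8% called, 17.7% higher) and Olfm4 mutant colon 2 higher and 1 lower (7.92% called). Adjacent tissue had 1 higher against APC mutant (17.3% called, 9.88% higher) and 1 higher against Olfm4 mutant colon (0.044% called, 0.0385% higher). In APC mutant against wild type colon limma called 0 genes (0%), and 2 of the 10 and 1324 of all genes had an unadjusted p under 0.05. The interaction likewise gave 0 calls (0%), with 2 of the 10 and 1901 of all genes at an unadjusted p under 0.05. Arrays of the groups compared did not overlap in 45.9% of all genes for tumour against adjacent, in 55.2%, 40.1%, 9.13% and 27% for tumour, adjacent, APC mutant and Olfm4 mutant against wild type, and in 39.5% and 25.2% for adjacent against APC mutant and against Olfm4 mutant colon. The median difference of the 10 was -0.07 in tumour against adjacent (0 over all genes), -0.02 in tumour against wild type (0.11 over all genes) and 0.57 in adjacent against wild type (0.13 over all genes). The comparisons with wild type share its 3 arrays, and those with adjacent tissue share its 3. As the 10 genes were chosen with earlier results of these data known, their counts are a description only.

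The 3′ minus 5′ difference of the bacterial RNAs was also put into the model as a covariate, where it nearly coincides with the groups. Of the 15 calls above, 13 did not pass the test then, and those that did were Hfe (-0.81, adjusted p = 0.013) and Heph (-1.97, adjusted p = 0.00066) in tumour against adjacent tissue. Hamp2 stood at -1.29 (adjusted p = 0.15) and Slc40a1 at -1.31 (adjusted p = 0.09) there. Against wild type the tumour differences became 0.23 for Ireb2 (adjusted p = 0.97), 0.32 for Cybrd1 (adjusted p = 0.96) and -3.33 for Heph (adjusted p = 0.14). For Olfm4 mutant colon they became -1.47 for Hamp2 (adjusted p = 0.24), 0.35 for Ireb2 (adjusted p = 0.38) and 0.70 for Cybrd1 (adjusted p = 0.18). The 23 calls of probe sets beside the main ones were all lost with the covariate, among them Slc11a2 1426441_at in tumours against wild type (1.47, adjusted p = 0.98).

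Beyond these 10, 81 of 88 further iron genes on 6 lists were measured, and in tumour against adjacent tissue 14 were higher and 11 lower (30.9% called, against 28.1% of all genes), with a median of 0.06. Among 16 uptake genes 5 were higher and 3 lower. Lcn2, whose product binds iron-carrying bacterial siderophores, was higher by 3.23 (SE 0.71, limma adjusted p = 0.004). It read 8.86, 8.50 and 12.03 in adjacent and 12.43, 13.23 and 13.44 in tumour arrays, so that adjacent replicate 3 lay nearer to the tumours than to its own group. Ltf, the iron-binding lactoferrin, was 2.30 higher, and the metal transporter Slc39a8 was 1.61 higher. Cd163, the macrophage receptor for haemoglobin bound to haptoglobin, was lower by 3.50 (SE 0.61, adjusted p = 0.00089), an 11.3-fold difference. Neutrophil markers had a log2 summed level of 9.72 to 13.48 in adjacent and 12.48 to 14.82 in tumour tissue, with 5 of 8 higher and Elane in the lowest quartile of genes on all arrays. Macrophage markers stood at 14.71 to 15.18 and 14.74 to 14.88, with Cd163 and Mrc1 lower among 8, and Cd163 is on that list too. Their part in these differences was not tested.

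Of 11 storage and export genes 3 were higher and 2 lower, where 28.1% of all genes were called. Haptoglobin (Hp) was 2.87 higher (adjusted p = 0.0018, limma), ceruloplasmin (Cp), the circulating ferroxidase related to hephaestin, was 2.01 higher (adjusted p = 2.5e-05), and the haem carrier Flvcr2 was 1.32 higher. Cp thus moved opposite to Heph. Flvcr2 read 4.71, 5.07 and 4.98 in adjacent tissue, under the first quartile of genes on each of those arrays, so its difference starts from near background. Abcg2, an efflux pump that also carries porphyrins, was 2.28 lower (adjusted p = 1.6e-06). Among 12 haem genes 2 were higher and 0 lower: Hmox1, the enzyme that breaks haem down and frees its iron, by 2.03 (SE 0.27, adjusted p = 0.00012) and Alas2, the erythroid start of haem synthesis, by 1.04 (adjusted p = 0.017). Hmox1 read 7.66, 7.31 and 7.84 in adjacent and 9.97, 9.04 and 9.90 in tumour arrays, without overlap. Of 5 erythroid markers measured Alas2 was the one called higher, and their log2 summed level was 7.82 to 8.10 in adjacent and 8.24 to 8.54 in tumour tissue, with Hba-a1 and Epor in the lowest quartile of genes on all arrays.

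Among 8 iron and oxygen sensing genes 1 was called, where 28.1% of all genes were called. It was Epas1, the hypoxia-inducible factor that drives Cybrd1, Slc11a2 and Slc40a1 in the gut, lower by 1.82 in tumours (SE 0.13, limma adjusted p = 9e-07). It read 12.20, 12.58 and 12.30 in adjacent and 10.81, 10.43 and 10.40 in tumour arrays, whereas the other groups lay at 12.50 to 12.72. Aco1, the other iron regulatory protein, stood at -0.05 against adjacent tissue (adjusted p = 0.8), and was 0.38 higher in tumours (adjusted p = 0.019) and 0.43 higher in adjacent tissue (adjusted p = 0.018) than in wild type. Of 10 iron-sulfur cluster genes 0 were higher and 3 lower, where 13.8% of all genes were called lower. The 3 were the assembly factors Isca1 (-0.64), Isca2 (-0.58) and Bola3 (-0.47). Counts this small are a description only.

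Hepcidin regulators were mixed, with 4 of 24 higher and 2 lower, where 28.1% of all genes were called. Il6, the cytokine that raises hepcidin in inflammation, was 1.53 higher in tumour than in adjacent tissue (SE 0.3, limma adjusted p = 0.0018), reading 3.97, 3.87 and 4.65 against 6.15, 4.85 and 6.09. All adjacent arrays and tumour replicate 2 lay under their first quartile of genes, so this difference starts from near background. Socs3, a target of the same STAT3 signal, stood at 1.30 (adjusted p = 0.14) there and was 2.24 higher in tumours than in wild type (adjusted p = 0.0086). Tmprss6, the protease that restrains hepcidin, was 0.62 higher (adjusted p = 0.0093), Smad7, an inhibitor of the BMP signal, was 0.40 higher (adjusted p = 0.021), and Il22ra1, a receptor chain for interleukin-22, was 1.59 lower (adjusted p = 4e-05). Bmp2, a ligand that drives hepcidin in the liver, was 0.89 lower (adjusted p = 0.0023). Bmp6, the other such ligand, stood at -0.26 (adjusted p = 0.57), and was 0.89 higher in adjacent tissue than in wild type (adjusted p = 0.036). Id1, a target gene of BMP signals, read 11.88, 12.00 and 11.94 in wild type, 11.97, 12.13 and 11.82 in APC mutant and 11.82, 9.62 and 11.66 in Olfm4 mutant colon, against 9.34, 9.26 and 8.78 in adjacent and 9.07, 8.34 and 8.67 in tumour arrays. It was lower by 2.81 in adjacent tissue than in wild type (adjusted p = 9e-04), and lower by 3.24 in tumours (adjusted p = 5.2e-05). These calls against wild type, like those of Aco1, Socs3 and Bmp6, were made without the bacterial covariate. With that covariate nearly no gene was called in either comparison, as the counts given further below show. Olfm4 mutant replicate 2, the low Id1 array of its group, also had the highest bacterial 3′ minus 5′ difference of the first 3 groups. Tfr2, a transferrin receptor that senses iron in the liver, stood at 0.07 (adjusted p = 0.8). Hamp itself did not pass the test in these comparisons with all arrays.

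**Figure D5:**
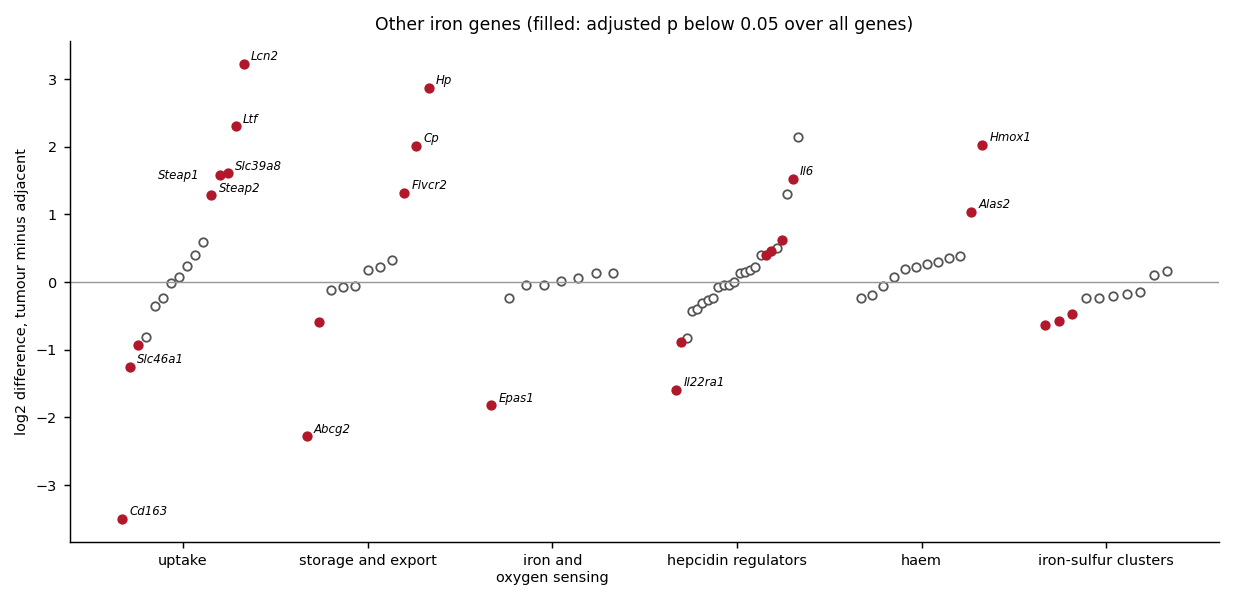
Log2 difference, tumour minus adjacent tissue, of 81 iron genes on 6 lists, ordered by value within each list and filled where the limma adjusted p over all genes was under 0.05. Lcn2 (3.23) and Cd163 (-3.50) are the extremes, and 14 filled points lie above 0 and 11 below.

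Of these 25 calls 19 held in all fits that left out an array. Slc46a1, Bmpr2, Smad7, Alas2, Bola3 and Isca2 did not. With the bacterial covariate 11 of the 25 passed the test and all 25 kept their direction, among them Epas1 (-1.78), Abcg2 (-2.37), Cp (1.94) and Hmox1 (2.51), while Lcn2 (2.59, adjusted p = 0.15), Cd163 (-3.02, adjusted p = 0.054) and Il6 (1.35, adjusted p = 0.074) did not pass. With the arrays of an animal averaged 6 of the 25 were lost (Slc46a1, Tmprss6, Bmpr2, Smad7, Alas2 and Isca2), and with the most variable probe set 4 (Steap3, Ncoa4, Bmpr2 and Smad7). Smad7 was also not called with suffix-free probe sets, and Tmprss6, Smad7 and Bola3 not with a replicate block.

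The genes whose levels ran most like Hamp over the 15 arrays were Laptm5 (Pearson r = 0.8), Opn3 (r = 0.783), Piwil1 (r = 0.78), Dclk2 (r = 0.78) and Ly86 (r = 0.762). Those most like Tfrc were Nabp1 (r = 0.916), Znrf2 (r = 0.904), Secisbp2l (r = 0.901), Zfp263 (r = 0.89) and Pip4p2 (r = 0.889). Those most like Slc40a1 were 5033404E19Rik (r = 0.956), Nmnat3 (r = 0.955), Hmcn1 (r = 0.943), Slc16a9 (r = 0.938) and Slc46a1 (r = 0.919), the last of which carries haem and folate. They are the highest of 18193 genes, and arrays share group and array order, so the values describe likeness alone.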

How the data were processed

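RNA was extracted with Trizol and hybridised as biotin-labelled cRNA, per the labels' protocols. The deposited log2 values were made with RMA, and the submitters' processing notes also name Partek 6.5. RMA quantile normalizes the arrays together, which takes out most of a shift shared by nearly all genes. A genome build is not given in the sources used here, no detection calls were used, and the number of arrays limits the precision.

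Of 45101 probe sets 64 are array controls, 3 of them for Tfrc. Of the rest 34945 had 1 gene symbol in the platform annotation, 932 several and 9160 none; only the first kind entered the fit by gene. The brightest probe set was kept for each of 18193 genes. In R 4.3.3, lmFit and eBayes of limma 3.58.1 fitted 5 group means to 15 arrays and tested 8 contrasts, with Benjamini-Hochberg adjustment over all genes (for probe sets beside the main ones, over all 45101) at 0.05. All adjusted p-values are from limma, and SE is that of the fitted log2 difference. The fit was tested on simulated data. The bacterial 3′ minus 5′ difference is the mean over dap, lys, phe and thr.

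The 10 genes, the 6 iron lists and the 9 marker lists were chosen with earlier results of these data known. Named from the lists were up to 4 called genes with the largest tumour against adjacent difference, 12 fixed genes (Ftl1 had no probe set with 1 symbol), and the 5 genes most correlated with each of Hamp, Tfrc and Slc40a1.

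Adjacent and tumour arrays share animals by their titles, which gives the pairing. Deviations from the group means correlated at 0.281 within one animal, from -0.0155 to 0.182 within the other and from -0.259 to -0.0881 between them. The deviations of a gene cancel within each group, so these values constrain each other and are a description only.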

Additional observations from a re-analysis of the deposited data

How the results depend on the processing

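Of the 15 calls among the 10 genes, 0 reversed under any alternative run. Lost were 3 with the mean of all probe sets, 1 each with the most variable probe set, cyclic loess, a trend and robust prior or animal as a random block, 3 with suffix-free probe sets, 5 with only the groups compared, 4 with the arrays of an animal averaged, 13 with the spike-in covariate and 0 with array weights. With a replicate block (pairs by replicate number) tumour against adjacent kept 4 of 4 calls and 4940 genes were called; Slc40a1 then had an adjusted p of 0.031. The cause of a lost call was not tested.

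Leaving out an array gave 3 to 4 of the 10 in tumour against adjacent (3914 to 5628 of all genes), 3 to 5 in tumour against wild type (7936 to 9049) and 3 to 5 in adjacent against wild type (3448 to 5177). It gave 0 in APC mutant (0 to 188) and 1 to 4 in Olfm4 mutant against wild type (279 to 2236), 0 to 2 in adjacent against APC mutant (1578 to 3634), 0 to 1 in adjacent against Olfm4 mutant (0 to 774) and 0 in the interaction (0 to 93).

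Other counts moved by over 1.5 times. For the 10 genes, tumour against adjacent had 2 with the covariate. Tumour against wild type had 6 with the mean of probe sets, 7 with the most variable, 6 with loess and 0 with the covariate; adjacent against wild type had 6 with the most variable, 5 with the trend and 0 with the covariate; Olfm4 mutant against wild type had 0 with only the groups compared or the covariate. Adjacent against APC mutant had 2 with the most variable, 3 with genes above the median or array weights, and 0 with loess, only the groups compared, the covariate, the random block or averaged animals. Adjacent against Olfm4 mutant had 2 with array weights and 0 with suffix-free probe sets, only the groups compared, the covariate or averaged animals.

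For all genes, tumour against adjacent had 3329 above the median, 2292 with the covariate and 3286 with averaged animals; tumour against wild type had 5898 above the median and 1 with the covariate. Adjacent against wild type had 3184 with only the groups compared, 0 with the covariate and 3360 with averaged animals. APC mutant against wild type had 1 with array weights. Olfm4 mutant against wild type had 2779 with array weights, 33 with only the groups compared, 23 with the covariate and 824 with averaged animals; its split of 986 higher and 454 lower became 694 and 615 with loess. Adjacent against APC mutant had 4896 with array weights, 0 with the covariate and 1651 with averaged animals. Adjacent against Olfm4 mutant had 432 with the most variable, 135 above the median, 47 with loess, 81 with the trend, 3308 with array weights, 1 with only the groups compared, 0 with the covariate and 3 with the random block. The interaction had 1 with the mean of probe sets, 6 with the most variable, 6 with suffix-free probe sets, 1 above the median, 1 with loess and 22 with array weights.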

Other observations

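Hepatocyte markers, read because hepcidin is chiefly a liver product, had a log2 summed level of 12.91 to 13.66 in wild type, 13.58 to 13.67 in adjacent and 12.79 to 13.14 in tumour tissue, with Serpina1c in the lowest quartile of genes on all arrays. That sum is carried by Ttr (12.52 to 13.73 over the arrays), while Alb lay between 6.03 and 9.72. Against adjacent tissue Alb and Ahsg were called higher in tumours and Ttr lower. Pancreas markers stood at 12.78 to 12.98 in adjacent and 11.11 to 11.59 in tumour tissue, with Cela1 lower among 7. Cela1 (11 to 13.59) carries that sum, and APC mutant replicate 1 stood apart on the others, with Cela2a at 7.57 and Cpb1 at 6.8. Small intestine markers stood at 12.87 to 13.12 in wild type, 11.35 to 12.69 in adjacent and 10.12 to 10.36 in tumour tissue.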
